A study of Mus musculus with 38 samples.

Results

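The genes described here carry glucose into the heart cell and through glycolysis, or into and out of glycogen. They are 35 genes picked by name, and every one was found among the 29564 genes of the deposited tables and passed the filter on low counts. By role they are 4 glucose transporters, 3 genes of the hexokinase and isomerase steps, 6 of the phosphofructokinase step, 9 of lower glycolysis, 2 lactate dehydrogenase genes, 6 of glycogen synthesis and 5 of glycogen breakdown.

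RNA came from left ventricle of 38 wild-type C57BL6 mice, with a library for each mouse. The group non_failing (n = 8) held control mice, whose labelled treatment was vehicle. The other groups modelled HFpEF, heart failure in which the ejection fraction is preserved, brought about by a high-fat diet together with L-NAME, which inhibits nitric oxide synthases. They received vehicle (HFpEF+Veh, n = 8), TYA-018, an inhibitor of the deacetylase HDAC6 (HFpEF+TYA-018, n = 11), or empagliflozin, an inhibitor of the renal glucose transporter SGLT2 (HFpEF+SGLT2i, n = 11). HFpEF mice were dosed by mouth once a day, the title of the data naming 3 months of treatment and the study's methods a shorter time. The labels call the mice female and the methods call them male, and no age stands in the labels. Both insults were given to every HFpEF mouse, so diet and L-NAME cannot be told apart, and a homogenate mixes muscle cells with all others: fewer cells of a type and less RNA per cell look the same in these values. Mouse numbers differ between groups, so nothing was paired.

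A heart muscle cell takes up glucose mainly through GLUT4, which insulin and contraction bring to the cell surface, with GLUT1 as the basal route. Hexokinase traps it as glucose 6-phosphate, which either enters glycolysis or is stored as glycogen. Phosphofructokinase commits the sugar to glycolysis, fructose-1,6-bisphosphatase runs that step backwards, and lactate dehydrogenase interconverts pyruvate and lactate at the end. The healthy adult ventricle draws mostly on fatty acids, and a shift in the balance of fuels is a long-standing theme in heart failure. Many of the steps have a muscle isozyme and one or more made in other tissues, and both kinds are listed here.

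Libraries held from 21.4 M to 59.3 M counts (M, 1000000). The 9 ventricular cardiomyocyte markers summed to 18160 to 33539 TPM (transcripts per 1000000 transcripts) over all libraries, as the labelled tissue would have it. Some libraries stood apart. HFpEF+Veh V2532 carried RNA of fast skeletal muscle: 10 of 13 markers were higher than in all libraries other than V2523 and itself, with Myh4 at 7.84 TPM against 0.169 at most elsewhere, and the list summed to 169.9 TPM against 47.9 to 75.5 in the 6 other vehicle libraries. HFpEF+Veh V2523 did not (sum 55.6 TPM, Myh4 at 0), but 12 of 13 hepatocyte markers were at their highest there, summing to 1264 TPM against 2.56 to 13.3 in those 6. Controls also carried hepatocyte RNA, at 22.4 to 319 TPM (median 51.9), against 9.49 TPM at most in the drug groups. HFpEF+SGLT2i V2571 and V2572 had the lowest cardiomyocyte sums of all, 18160 and 20552 TPM. Counts of members were therefore also taken without V2523 and V2532, and without V2571 and V2572. The part of these libraries in a result is shown only by those values, and its cause was not tested.

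The promoters below belong to Fbp2, Pfkp and Pgam1, 3 of the 4 members that were higher in both drug groups than in controls (the window of the other, Pfkl, held no match), and to the lactate dehydrogenase pair, Ldha and Ldhb. Each runs 250 bases up to the RefSeq transcription start, 5′ to 3′ on the gene's strand, build GRCm38.p6, with motif matches in capitals.
Fbp2, chr13:62858401-62858650, minus strand: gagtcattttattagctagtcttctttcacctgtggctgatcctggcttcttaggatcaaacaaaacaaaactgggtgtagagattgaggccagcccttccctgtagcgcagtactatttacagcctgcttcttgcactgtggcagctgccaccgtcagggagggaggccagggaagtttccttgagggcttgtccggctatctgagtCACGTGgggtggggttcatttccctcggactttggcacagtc
Pfkp, chr13:6648772-6649021, minus strand: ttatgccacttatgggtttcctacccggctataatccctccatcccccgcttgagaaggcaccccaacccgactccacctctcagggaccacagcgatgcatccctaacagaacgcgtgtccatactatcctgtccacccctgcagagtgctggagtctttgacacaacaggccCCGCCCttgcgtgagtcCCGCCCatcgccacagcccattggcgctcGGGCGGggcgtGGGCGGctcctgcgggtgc
Pgam1, chr19:41911621-41911870, plus strand: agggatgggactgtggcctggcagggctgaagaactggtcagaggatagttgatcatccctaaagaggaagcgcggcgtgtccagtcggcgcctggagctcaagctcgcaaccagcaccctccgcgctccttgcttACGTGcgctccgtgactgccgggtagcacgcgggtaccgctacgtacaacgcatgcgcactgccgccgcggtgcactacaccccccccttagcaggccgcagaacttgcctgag
Ldha, chr7:46845554-46845803, plus strand: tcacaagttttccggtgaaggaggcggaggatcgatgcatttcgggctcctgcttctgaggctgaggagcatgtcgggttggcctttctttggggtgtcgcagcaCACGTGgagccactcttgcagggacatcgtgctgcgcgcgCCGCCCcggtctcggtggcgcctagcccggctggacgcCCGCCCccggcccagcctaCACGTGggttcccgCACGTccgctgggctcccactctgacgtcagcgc
Ldhb, chr6:142507958-142508207, minus strand: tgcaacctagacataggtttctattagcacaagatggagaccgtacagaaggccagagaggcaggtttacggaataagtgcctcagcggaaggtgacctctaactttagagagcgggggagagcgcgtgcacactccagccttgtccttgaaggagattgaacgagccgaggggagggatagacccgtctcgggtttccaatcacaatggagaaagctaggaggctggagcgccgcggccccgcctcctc

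The Fbp2 window held the E-box CACGTG 42 bases before the start. This is the kind of box in the carbohydrate response elements of ChREBP and MondoA, and it overlaps the shorter core ACGTG read by hypoxia-inducible factors. The Ldha window held the E-box at 145 and at 48 bases, a further ACGTG at 34 and the GC box GGGCGG at 105 and at 67 bases. Pgam1 held ACGTG at 114 bases and Pfkp 4 GC boxes, whereas none of the motifs searched was found in the Ldhb window or before the second listed start of Ldha. Of the 35 members 33 had a RefSeq entry and 31 were searched, on both strands and at every listed start. ACGTG was found in 13 of the 31 and in 16.6% of all 32851 promoter windows, CACGTG in 4 and in 6.02%, GGGCGG in 17 and in 32.7%, the MEF2 element in 2 and in 2.92%, and TCAAGGTCA, the element of estrogen-related receptors, in 0 and in 0.387%. Several members have more than 1 start, which raises their share over that of single windows. Counted by window, ACGTG was in 16 of the members' 47, CACGTG in 4, GGGCGG in 20, the MEF2 element in 2 and TCAAGGTCA in 0. A match is a run of letters and shows no binding.

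Gapdh was the most abundant member, with a median of 2273 TPM over the 38 libraries. It was followed by Aldoa (1184 TPM), Ldhb (693), Pgam2 (634), Eno3 (453), Pkm (283), Ldha (279), Tpi1 (238) and Pygm (195), and while Gapdh and Aldoa did not overlap in range, each later neighbour in this order overlapped with the next. At the other end 6 members lay under 10 TPM, the lowest being Slc2a12 at 0.775 TPM, Slc2a3 at 1.69 and Pgm1 at 2.62. The median member was at 43.8 TPM, against 3.7 TPM for the median gene tested, so counting error bears less on members than on most genes. Even so, Slc2a12 had only 49 estimated reads in its lowest library.

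Comparing HFpEF+Veh with non_failing asks how the disease model changed the pathway. Here 7 of 35 members were called (20.0%, against 3.15% of all 13765 genes tested): a call is an adjusted p under 0.05 in the quasi-likelihood test of edgeR, from a model of the 4 groups with all libraries unless another setting is named. Fbp2 and Pfkl were higher (2 members, 5.71%, against 1.77% of all genes called higher), and Slc2a4, Slc2a12, Eno3, Ldhb and Phkg1 were lower (5 members, 14.3%, against 1.38% called lower). Slc2a4, Eno3 and Phkg1 are the muscle forms of their families and Ldhb the heart form, while Pfkl is the liver form and Fbp2 again a muscle form. The median member lay at -0.09 on the log2 scale and the median gene at 0.01. Without V2523 and V2532 the count was 8 (6.6% of all genes called), with Ldha and Pfkp gained on the high side and Phkg1 lost at an adjusted p of 0.0568. In the same comparison 4 of 9 ventricular cardiomyocyte markers were called lower, their sum running from 23372 to 27244 TPM in HFpEF+Veh against 23831 to 33539 in non_failing, and 2 of 6 fibroblast markers were called higher (245 to 582 TPM against 166 to 275). Of 7 fast skeletal muscle markers tested 3 were called higher. The list of 13 summed to 47.9 to 75.5 TPM in HFpEF+Veh without V2523 and V2532, against 24.0 to 49.0 in non_failing. Most of the sum in those vehicle libraries was Myl1 (median 51.7 TPM). Every other marker of the list had a median of 3.57 TPM or less there, with Myh4 and Pvalb at 0. Markers of pericytes and smooth muscle were called lower in 2 of 6 cases. The 1 brown adipocyte marker tested, Cidea, was called higher. The list of 3 summed to 20.4 to 30.1 TPM against 13.2 to 18.7, nearly all of it Cidea. Ucp1 and Elovl3 lay at 0.116 and 0.316 TPM at most in any library. The 6 endothelial markers summed to 1844 to 3337 TPM against 1366 to 2304, with 0 called in edgeR. Fabp4 made most of this sum. In HFpEF+Veh without V2523 and V2532 its median was 2360 TPM, against 61.7 TPM or less for each other marker. The part of cell mixture in the members' changes was not tested.

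TYA-018 against vehicle asks what HDAC6 inhibition did within the model. Phkg1, Aldoa, Gapdh and Slc2a4 were higher, and no member was called lower (4 of 35, 11.4%, against 1.93% of all genes called and 0.835% called higher). Of the 35 members 34 had a positive estimate, with a median of 0.22 against -0.01 for all genes. Scaling by library size alone lowers that median to 0.09 and the median of all genes to -0.14, with 28 members above 0. Without V2523 and V2532 Aldoa alone was called (0.649% of all genes called), the median member was at 0.32, and 21 members had an unadjusted p under 0.05 (20.9% of all genes did), against 18 with all libraries (17.5% of all genes). In the comparison with all libraries 13 of 13 hepatocyte markers and 2 of 7 fast skeletal muscle markers tested were called lower with TYA-018, and 0 markers of the other lists were called. Their part in the members' values was not tested.

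Empagliflozin against vehicle gave 0 calls among members in edgeR (0.85% of all genes called). At an unadjusted p under 0.05 there were 9 (10.0% of all genes were), by DESeq2 there was 1 call (1.44% of all genes) and by limma 0 (0.0%). The median member was at 0.17, and 30 of 35 were above 0. With empagliflozin too the hepatocyte markers (13 of 13) and 3 of 7 fast skeletal muscle markers were called lower than with vehicle, and their part was not tested. Without V2523 and V2532 the count stayed at 0 (0.144% of all genes called), with 17 members at an unadjusted p under 0.05 (16.7% of all genes). Without V2571 and V2572, the libraries poor in cardiomyocyte markers, 5 members were higher: Eno3 (log2 fold change 0.48, adjusted p = 0.00846), Slc2a12 (log2 fold change 0.73, adjusted p = 0.0235), Aldoa (log2 fold change 0.30, adjusted p = 0.0288), Ldhb (log2 fold change 0.35, adjusted p = 0.0333) and Pygm (log2 fold change 0.42, adjusted p = 0.045). Of all genes 2.33% were then called. These values come from edgeR, and the 2 libraries were left out after their values had been seen.

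The drugs were also set against each other. In edgeR 0 members and 0.0% of all genes were called between HFpEF+TYA-018 and HFpEF+SGLT2i, 5 members had an unadjusted p under 0.05 (13.2% of all genes did), and DESeq2 and limma called 0 members (1.61% of all genes by DESeq2 and 0.0% by limma). Without V2571 and V2572 there were again 0 calls (0.0% of all genes), with 2 members at an unadjusted p under 0.05 (11.8% of all genes). A missed threshold does not show equality, so the intervals are given. For Slc2a4 the difference was 0.25 with a 95% interval of 0.06 to 0.44, for Aldoa 0.17 (0.01 to 0.32), for Gapdh 0.18 (0.01 to 0.34) and for Fbp2 -0.04 (-0.23 to 0.15).

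Against controls, HFpEF+TYA-018 had 6 members called, all of them higher: Fbp2, Pfkl, Ldha, Pgam1, Pfkp and Pkm (17.1%, against 7.39% of all genes called and 4.0% called higher). HFpEF+SGLT2i had 4, also all higher: Fbp2, Pfkl, Pfkp and Pgam1 (11.4%, against 6.45% called and 3.46% called higher). Leaving out V2571 and V2572 gave 5, with Pkm and Pgm2 in and Pfkp out at an adjusted p of 0.0541 (5.99% of all genes called). Of the 5 members lower in HFpEF+Veh than in controls, edgeR called 0 lower in a drug group with all libraries and no length adjustment. Slc2a4 still lay at -0.25 in HFpEF+SGLT2i against controls (interval -0.45 to -0.04, adjusted p = 0.155, edgeR), with 10 of 11 libraries under the control mean. With the length covariate described below, Slc2a4 was called lower in that comparison. These contrasts share their control libraries, and the direct difference from HFpEF+Veh passed the test for Slc2a4 and Phkg1 with TYA-018 and for 0 of the 5 with empagliflozin. Cell markers moved in the same comparisons: 13 of 13 hepatocyte markers were called lower in HFpEF+TYA-018 and 12 of 13 in HFpEF+SGLT2i, and of the 9 ventricular cardiomyocyte markers 1 and 4 were called lower. In HFpEF+TYA-018 1 marker each of fast skeletal muscle, fibroblasts, endothelium, erythrocytes and brown adipocytes (Cidea) was higher. Of the markers of pericytes and smooth muscle 1 was higher and 1 lower in that group. In HFpEF+SGLT2i 1 marker each of fast skeletal muscle and brown adipocytes (Cidea) was higher, and of the fibroblast markers 1 was higher and 1 lower. Their part in the members' values was not tested.

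**Figure D1:**
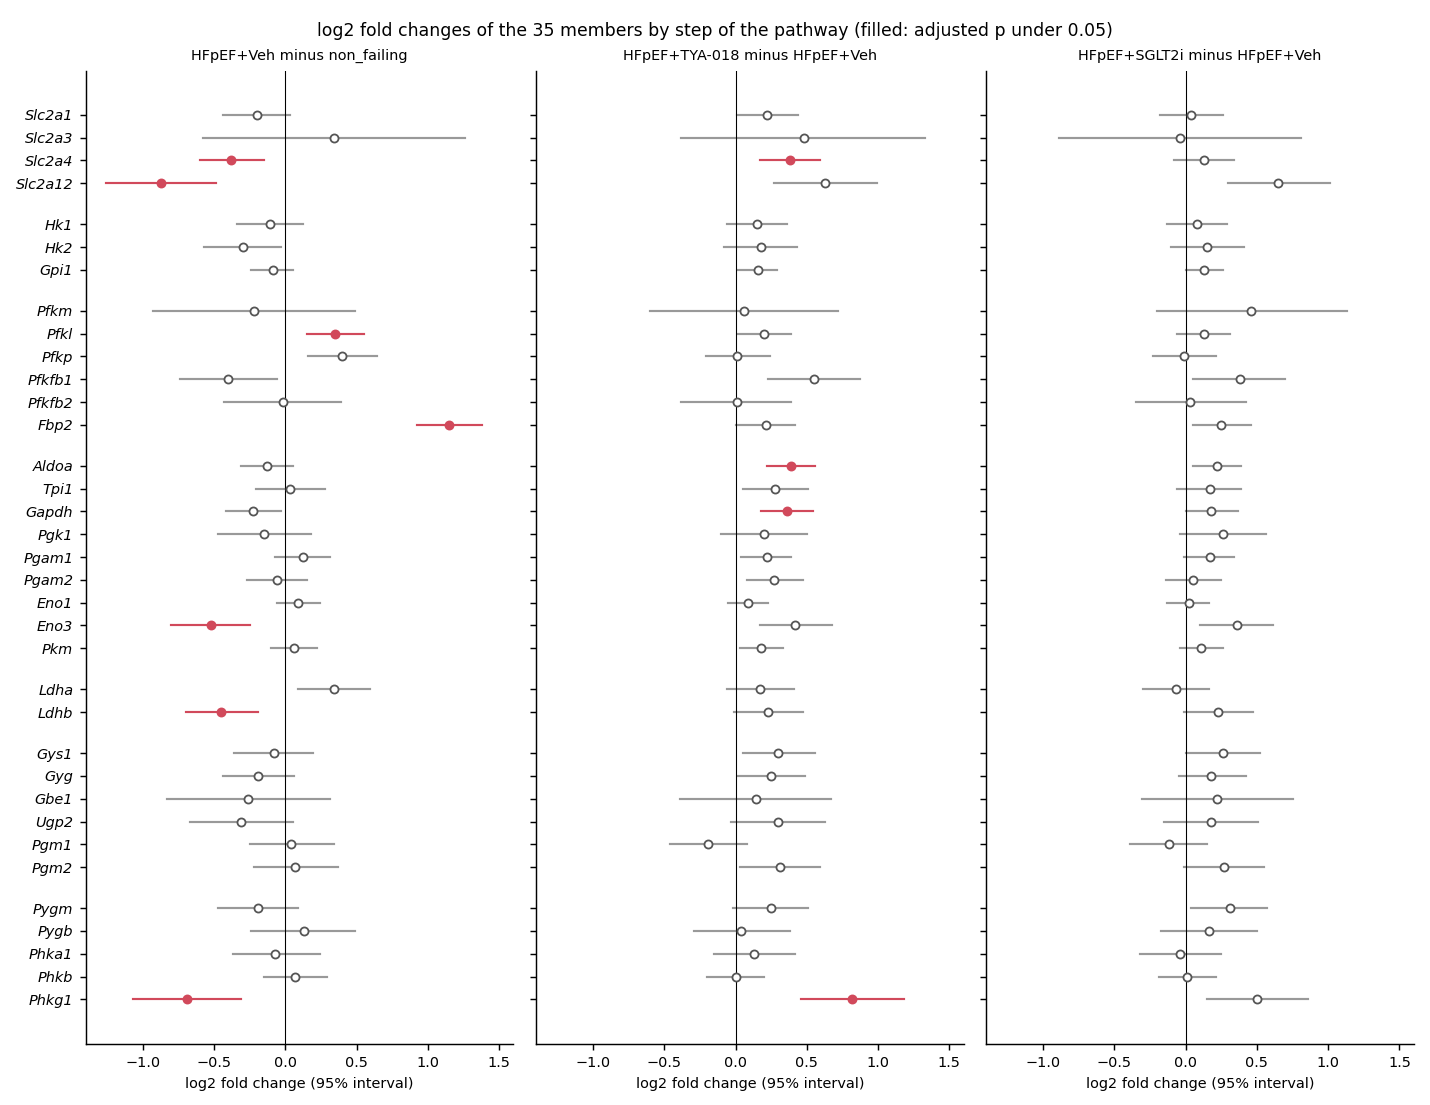
log2 fold changes of the 35 members (points) with 95% intervals (lines) from edgeR in 3 comparisons, the genes ordered by step of the pathway and filled where the adjusted p was under 0.05. Against non_failing, HFpEF+Veh had 2 members filled to the right of 0 and 5 to the left. In HFpEF+TYA-018 against HFpEF+Veh 34 of 35 points lie to the right and 4 are filled, and in HFpEF+SGLT2i against HFpEF+Veh 30 lie to the right and 0 are filled.

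Among the transporters, Slc2a4 (GLUT4, chr11:69942539-69948188, GRCm38, minus strand) made up 85.7% to 95.5% of the summed TPM of the 4 genes in every library. It ran at 73.6 to 114 (median 93.1) in non_failing, 62.0 to 89.7 (median 74.1) in HFpEF+Veh, 72.7 to 102 (median 90.9) in HFpEF+TYA-018 and 51.6 to 98.9 (median 79.1) in HFpEF+SGLT2i TPM. V2529 and V2530 lay under the control range and the other 6 vehicle libraries within it, and the TYA-018 range overlapped with both. In HFpEF+Veh it fell by 0.38 on the log2 scale against controls (SE 0.11, adjusted p = 0.0486, edgeR), with 8 of 8 libraries under the control mean. TYA-018 raised it against vehicle by 0.38 ± 0.10 (SE), adjusted p = 0.0462, with 9 of 11 libraries above the vehicle mean, and its difference from controls had an interval of -0.21 to 0.21. Empagliflozin against vehicle was at 0.13 ± 0.10 (SE), adjusted p = 0.713. The TYA-018 call was lost without V2523 alone (0.39, adjusted p = 0.0574) and without V2523 and V2532 (0.44, adjusted p = 0.058). Over 11 alternatives the vehicle call held in 7 and the TYA-018 call in 5, the others lost being those with a length offset, with limma, with RLE factors (TYA-018) and without a low-count filter (vehicle). With library size alone neither call held, at -0.31 (adjusted p = 0.12) for HFpEF+Veh against non_failing and 0.25 (adjusted p = 0.115) for TYA-018 against vehicle in edgeR.

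Slc2a12 (GLUT12, a basal and insulin-responsive transporter of heart and muscle, chr10:22645011-22704285, plus strand) was scarce, at 0.46 to 1.47 (median 0.92) in non_failing, 0.453 to 0.789 (median 0.512) in HFpEF+Veh, 0.583 to 1.01 (median 0.815) in HFpEF+TYA-018 and 0.588 to 1.46 (median 0.776) in HFpEF+SGLT2i TPM. Apart from V2523 and V2532, every vehicle library lay at 0.592 TPM or less. Its estimate in HFpEF+Veh against non_failing was -0.87 ± 0.19 (SE), adjusted p = 0.00525, with 8 of 8 libraries under the control mean. Both drug groups lay above vehicle without passing the test, at 0.63 ± 0.18 (SE), adjusted p = 0.0515 for TYA-018 and 0.65 ± 0.18 (SE), adjusted p = 0.0717 for empagliflozin, in each case with 11 of 11 libraries above the vehicle mean. Slc2a1 (GLUT1) ran from 2.97 to 6.21 TPM over all libraries with no call. Slc2a3 (GLUT3, a high-affinity transporter of neurons and blood cells) ran from 0.54 to 6.6 TPM and had intervals too wide to place it, such as -0.58 to 1.26 in HFpEF+Veh against non_failing.

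Hk2, the insulin-regulated hexokinase of muscle, had a mean of 94.5 ± 6.22 TPM (SD, n = 8) in controls, 77.7 ± 7.92 with vehicle (n = 8), 85.2 ± 6.9 with TYA-018 (n = 11) and 74.9 ± 10.2 with empagliflozin (n = 11). All 8 vehicle libraries lay under the control mean, but the difference of -0.30 ± 0.13 (SE), adjusted p = 0.254 did not pass in edgeR. Against vehicle the edgeR estimates were 0.18 ± 0.13 (SE), adjusted p = 0.484 for TYA-018 and 0.15 ± 0.13 (SE), adjusted p = 0.723 for empagliflozin. The latter ran opposite to the TPM means, and TYA-018 lay at 0.02 against empagliflozin (-0.21 to 0.25). Hk1, the housekeeping hexokinase, and Gpi1, which turns glucose 6-phosphate into fructose 6-phosphate, had no call, at 21.6 and 65.1 TPM in the median library.

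At the phosphofructokinase step the largest change of all members was seen. Fbp2, the muscle fructose-1,6-bisphosphatase (chr13:62836877-62858422, minus strand), ran at 6.19 to 12.9 (median 10.5) in non_failing, 19.0 to 30.5 (median 24.5) in HFpEF+Veh, 21.2 to 31.5 (median 25.6) in HFpEF+TYA-018 and 19.9 to 37.3 (median 26.1) in HFpEF+SGLT2i TPM. No library of any HFpEF group came down to the highest control. HFpEF+Veh exceeded controls by 1.15 ± 0.11 (SE), adjusted p = 1.34e-08, HFpEF+TYA-018 by 1.36 ± 0.11 (SE), adjusted p = 6.15e-11 and HFpEF+SGLT2i by 1.40 ± 0.11 (SE), adjusted p = 2.49e-11, so its RNA was 2.21-fold, 2.57-fold and 2.64-fold as high. Over 11 alternatives the estimate against non_failing in HFpEF+Veh ran from 1.09 to 1.21, all of them called. Neither drug's difference from vehicle passed the test, with intervals of 0.00 to 0.42 for TYA-018 and 0.05 to 0.46 for empagliflozin and adjusted p of 0.275 and 0.343.

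The liver-type subunit Pfkl (chr10:77986947-78010083, minus strand) ran at 15.2 to 28.4 (median 20.2) in non_failing, 23.0 to 32.4 (median 27.5) in HFpEF+Veh, 24.5 to 46.3 (median 28.1) in HFpEF+TYA-018 and 22.0 to 33.7 (median 28.1) in HFpEF+SGLT2i TPM. All libraries of the 3 HFpEF groups lay above the control mean, though 1 control library reached into their range. The estimates against controls were 0.35 ± 0.10 (SE), adjusted p = 0.0415 in HFpEF+Veh, 0.55 ± 0.09 (SE), adjusted p = 0.000141 in HFpEF+TYA-018 and 0.47 ± 0.09 (SE), adjusted p = 0.000902 in HFpEF+SGLT2i. The vehicle call was lost without V2532 (0.34, adjusted p = 0.0515) and without a low-count filter (0.35, adjusted p = 0.0528). Pfkp, the platelet type (chr13:6579768-6648777, minus strand), ran at 8.03 to 10.6 (median 10.2) in non_failing, 11.1 to 19.4 (median 13.8) in HFpEF+Veh, 11.0 to 20.7 (median 12.5) in HFpEF+TYA-018 and 10.4 to 18.2 (median 13.6) in HFpEF+SGLT2i TPM. The vehicle and TYA-018 ranges did not overlap with controls, where 8 of 8 libraries lay at 10.6 TPM or less. It was called in HFpEF+TYA-018 (0.41 ± 0.11 (SE), adjusted p = 0.0169) and HFpEF+SGLT2i (0.39 ± 0.11 (SE), adjusted p = 0.0264) and fell short in HFpEF+Veh with all libraries (0.40 ± 0.12 (SE), adjusted p = 0.0556), passing without V2523 and V2532 at 0.46 with an adjusted p of 0.0215 and without either alone (0.43 and 0.42, adjusted p = 0.0333 and 0.0403). It also passed in HFpEF+Veh under 6 alternatives that left out no vehicle or control library, DESeq2 (adjusted p = 0.0357) and limma (0.0257) among them. With library size alone neither drug group's call held (adjusted p = 0.0623 and 0.0544). Pfkm, the muscle subunit, ran from 8.21 to 75.0 TPM and had no call, and its widest values are taken up below. Of the bifunctional enzymes that set fructose 2,6-bisphosphate, Pfkfb1 came nearest to a call in HFpEF+TYA-018 against HFpEF+Veh (0.55 ± 0.16 (SE), adjusted p = 0.0604), and Pfkfb2, the heart form, lay at -0.02 in HFpEF+Veh against non_failing with an interval of -0.43 to 0.39.

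Of the 9 genes of lower glycolysis only Eno3 was called in HFpEF+Veh against non_failing. Eno3, the muscle enolase (chr11:70657202-70662513, plus strand), ran at 395 to 593 (median 529) in non_failing, 336 to 479 (median 378) in HFpEF+Veh, 340.2 to 568 (median 474) in HFpEF+TYA-018 and 266 to 629.6 (median 454) in HFpEF+SGLT2i TPM. Vehicle had the lowest median, and the lowest single values were those of V2571 and V2572. In HFpEF+Veh it was at -0.52 ± 0.13 (SE), adjusted p = 0.0224 against controls, with 8 of 8 libraries under the control mean, and it was called in all 11 alternatives. Neither drug's difference from vehicle passed with all libraries, at 0.42 ± 0.13 (SE), adjusted p = 0.0685 for TYA-018 and 0.36 ± 0.13 (SE), adjusted p = 0.233 for empagliflozin. Eno1, the enolase of most tissues, ran from 41.7 to 86.0 TPM with no call, and its highest interval was 0.04 to 0.32 in HFpEF+TYA-018 against non_failing.

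Aldoa, the muscle and red cell aldolase (chr7:126795234-126800751, minus strand), ran at 853 to 1347 (median 1094) in non_failing, 960.2 to 1203 (median 1105) in HFpEF+Veh, 1049.9 to 1667 (median 1275) in HFpEF+TYA-018 and 887 to 1478 (median 1229) in HFpEF+SGLT2i TPM. The ranges overlapped, and 10 of 11 TYA-018 libraries lay above the vehicle mean. The 5 erythrocyte markers summed to 3786 to 8147 TPM (median 5841) in non_failing, 5780 to 41874 (median 9124) in HFpEF+Veh, 4811 to 22934 (median 12452) in HFpEF+TYA-018 and 4720 to 16037 (median 6646) in HFpEF+SGLT2i, with 0 of 5 called between TYA-018 and vehicle, and their part in Aldoa was not tested. TYA-018 raised it by 0.39 ± 0.08 (SE), adjusted p = 0.00724, and the call held without V2523 and V2532 (0.40 ± 0.10 (SE), adjusted p = 0.048) but not in limma on log2(TPM + 1), where the estimate was 0.23 and the adjusted p 0.112. Empagliflozin gave 0.22 ± 0.08 (SE), adjusted p = 0.274 with all libraries. Gapdh, glyceraldehyde 3-phosphate dehydrogenase (chr6:125161715-125166467, minus strand), ran at 1900.0 to 2691 (median 2246) in non_failing, 1939 to 2583 (median 2218) in HFpEF+Veh, 2161 to 2986 (median 2438) in HFpEF+TYA-018 and 1805 to 2445 (median 2287) in HFpEF+SGLT2i TPM. Against vehicle, TYA-018 raised it by 0.36 ± 0.09 (SE), adjusted p = 0.0286, with 9 of 11 libraries above the vehicle mean. The study's qPCR used this gene as the reference, and in these libraries it lay at -0.23 in HFpEF+Veh against non_failing (adjusted p = 0.229, edgeR). Without V2523 and V2532 the TYA-018 call was lost at an adjusted p of 0.058, scaled by library size alone the estimate was 0.23 (adjusted p = 0.0995), and in limma it was 0.15 (adjusted p = 0.202).

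Pgam1, the phosphoglycerate mutase of most tissues (chr19:41911923-41918660, plus strand), ran at 20.3 to 28.6 (median 25.9) in non_failing, 23.4 to 34.7 (median 29.9) in HFpEF+Veh, 25.4 to 46.4 (median 29.5) in HFpEF+TYA-018 and 25.6 to 43.2 (median 30.2) in HFpEF+SGLT2i TPM. All 11 libraries of each drug group lay above the control mean. It was higher than in controls in HFpEF+TYA-018 (0.34 ± 0.09 (SE), adjusted p = 0.0119) and HFpEF+SGLT2i (0.29 ± 0.09 (SE), adjusted p = 0.0373), and lay at 0.12 ± 0.09 (SE), adjusted p = 0.553 in HFpEF+Veh. With library size alone neither Pgam1 call held (adjusted p = 0.0712 and 0.0934), and that in HFpEF+SGLT2i was also lost without a low-count filter (0.0549) and with a length offset (0.0514). Pkm, pyruvate kinase (chr9:59656368-59679375, plus strand), ran at 201 to 302 (median 261) in non_failing, 259 to 323 (median 287) in HFpEF+Veh, 254 to 345 (median 292) in HFpEF+TYA-018 and 209 to 351 (median 309) in HFpEF+SGLT2i TPM. Its estimate in HFpEF+TYA-018 against controls was 0.24 ± 0.07 (SE), adjusted p = 0.0419, with 10 of 11 libraries above the control mean. This call held in 5 of 8 alternatives and was lost with library size alone (adjusted p = 0.162), without a low-count filter (0.0808) and with a length offset (0.0622). The table sums the splice forms of Pkm, so M1 and M2 were not separated here. Tpi1, Pgk1 and Pgam2, the muscle mutase, had no call. Pgam2 had 95.9% of the summed mutase TPM in the median control, and its nearest difference was 0.27 ± 0.10 (SE), adjusted p = 0.116 in HFpEF+TYA-018 against HFpEF+Veh.

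Of the lactate dehydrogenase genes, Ldhb was called lower in HFpEF+Veh and Ldha higher in HFpEF+TYA-018, both against controls, and in no group did both pass with all libraries. Ldhb, which makes the heart subunit (chr6:142490249-142507957, minus strand), ran at 619 to 860.1 (median 798) in non_failing, 544 to 713 (median 662) in HFpEF+Veh, 577 to 733 (median 666) in HFpEF+TYA-018 and 477 to 808 (median 697) in HFpEF+SGLT2i TPM. HFpEF+Veh lay under the control mean in 8 of 8 libraries (-0.45 ± 0.13 (SE), adjusted p = 0.04). The call held in 9 of 11 alternatives and was lost with library size alone (-0.37, adjusted p = 0.103) and without a low-count filter. In the drug groups Ldhb was at -0.22 ± 0.12 (SE), adjusted p = 0.269 with TYA-018 and -0.22 ± 0.12 (SE), adjusted p = 0.308 with empagliflozin. Ldha, which makes the muscle subunit (chr7:46841475-46855627, plus strand), ran at 158 to 263 (median 223) in non_failing, 165 to 366 (median 324) in HFpEF+Veh, 247 to 386 (median 313) in HFpEF+TYA-018 and 186 to 318 (median 265) in HFpEF+SGLT2i TPM. All 11 TYA-018 libraries lay above the control mean (0.51 ± 0.12 (SE), adjusted p = 0.00423). HFpEF+Veh was at 0.34 ± 0.12 (SE), adjusted p = 0.145 with all libraries and at 0.43 ± 0.12 (SE), adjusted p = 0.0192 without V2523 and V2532, since V2532 had 165 TPM where the other 7 vehicle libraries had 275 to 366 TPM. HFpEF+SGLT2i was at 0.27 ± 0.12 (SE), adjusted p = 0.176. The share of Ldhb in the summed TPM of the pair had a median of 76.7% in non_failing (75.1% to 83.2%), 67.4% in HFpEF+Veh (62.0% to 80.7%), 66.8% with TYA-018 (65.5% to 74.0%) and 70.8% with empagliflozin (61.5% to 81.3%). The TYA-018 range lay wholly under the control range, and so did 7 of the 8 vehicle libraries, V2532 being the one at 80.7% and the next highest at 69.4%.

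**Figure D2:**
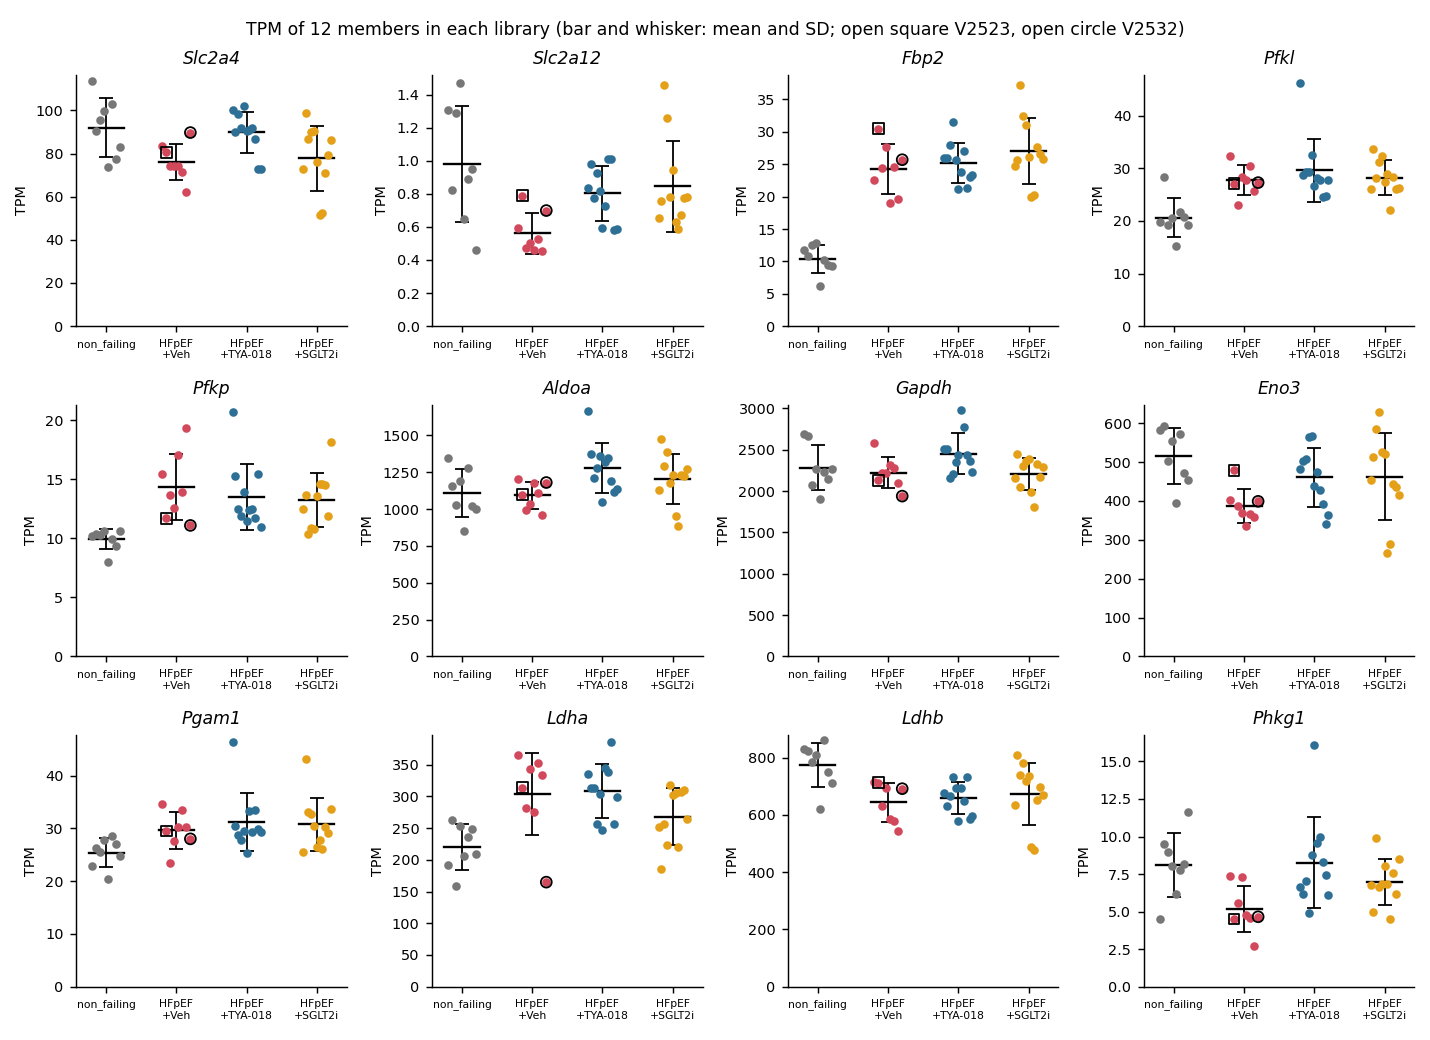
TPM of 12 members in each of the 38 libraries (points), by group, with the group mean (bar) and SD (whisker), V2523 marked by an open square and V2532 by an open circle. Fbp2 is at 12.9 TPM or less in every non_failing library and at 19.0 TPM or more in every HFpEF library. Ldha in V2532 lies far below the other vehicle libraries.

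Other isozyme pairs showed how far a library can shift a share. Eno3 had 90.6% of the summed enolase TPM in the median control (89.2% to 92.6%) and 86.4% in the median HFpEF+Veh library (84.7% to 88.3%), ranges that did not overlap, with 89.4% under TYA-018 (84.8% to 91.0%) and 89.6% under empagliflozin (80.8% to 91.3%). Hk2 had 72.0% to 85.2% of the hexokinase TPM over all libraries and Pygm 63.7% to 77.3% of the phosphorylase TPM. Pfkm varied most, from 15.8% to 61.3% of the phosphofructokinase TPM. V2571 was the lowest of all libraries for Slc2a4, Hk2, Pfkm, Eno3 and Ldhb shares alike. It also had the highest endothelial marker sum, 3868 TPM, of which Fabp4 made 3592 TPM.

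**Figure D3:**
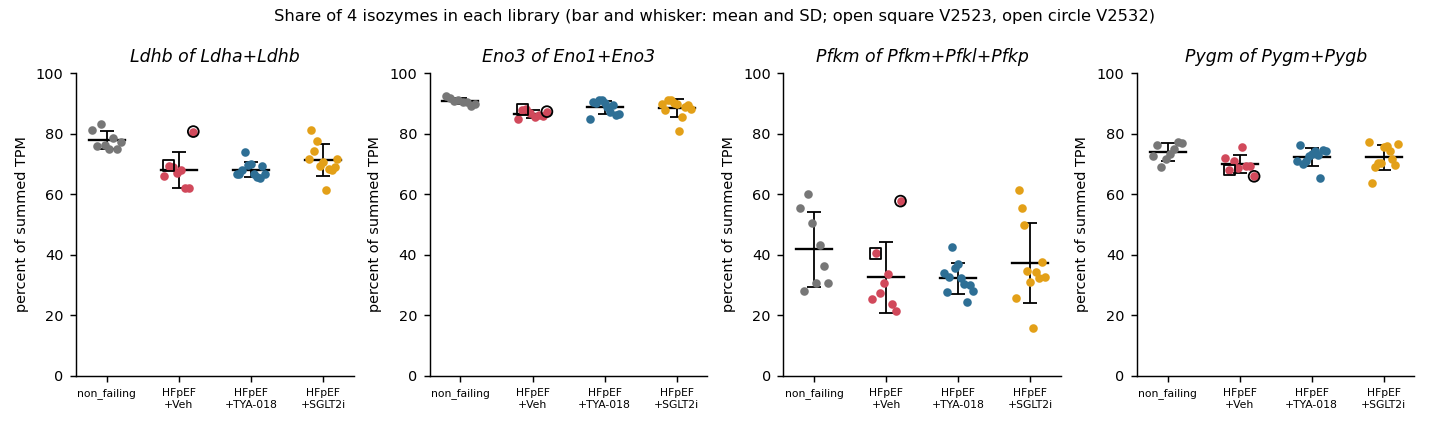
Share of 4 isozymes in the summed TPM of their family, in percent, in each library (points), with the group mean (bar) and SD (whisker), V2523 marked by an open square and V2532 by an open circle. The Eno3 share of HFpEF+Veh, 84.7% to 88.3%, lies under that of non_failing, 89.2% to 92.6%, whereas the Pfkm share spreads from 15.8% to 61.3% within and across groups.

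Genes of glycogen synthesis gave no call in the 6 comparisons of the 4-group model, though 4 of the 6 passed in HFpEF+TYA-018 against HFpEF+Veh with a length covariate described below. Gys1, glycogen synthase of muscle, lay at 0.30 ± 0.13 (SE), adjusted p = 0.197 in HFpEF+TYA-018 against HFpEF+Veh and 0.26 ± 0.13 (SE), adjusted p = 0.485 in HFpEF+SGLT2i against HFpEF+Veh. Gyg, the glycogenin that primes the chain, and Ugp2, which makes UDP-glucose, lay at 0.25 and 0.30 with TYA-018. Gbe1, the branching enzyme, was at 0.14 with an interval of -0.39 to 0.67 in the same comparison. Without V2523 and V2532 the TYA-018 estimates were 0.52 (-0.02 to 1.07) for Gbe1 and 0.48 (0.13 to 0.83) for Ugp2, with adjusted p of 0.257 and 0.12 in edgeR. The phosphoglucomutases Pgm1 and Pgm2 are reported under the names in the files, since annotations have exchanged these names: the row named Pgm2 is the abundant one, 45.1 TPM against 2.62 TPM, and no position is given for them. Without V2571 and V2572 the row Pgm2 was higher in HFpEF+SGLT2i than in controls (0.47 ± 0.12 (SE), adjusted p = 0.0164).

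In glycogen breakdown the muscle phosphorylase Pygm and the brain form Pygb had median levels of 195 and 73.5 TPM with no call in the 4-group model, and Pygm passed in HFpEF+TYA-018 against HFpEF+Veh with the length covariate (0.31, adjusted p = 0.0418). Phosphorylase kinase switches them on, and its catalytic subunit of muscle, Phkg1 (chr5:129863421-129898549, minus strand), ran at 4.48 to 11.6 (median 8.08) in non_failing, 2.71 to 7.4 (median 4.71) in HFpEF+Veh, 4.87 to 16.1 (median 7.41) in HFpEF+TYA-018 and 4.51 to 9.91 (median 6.81) in HFpEF+SGLT2i TPM. Vehicle had the lowest median, and its range overlapped with that of each other group. It was at -0.69 ± 0.19 (SE), adjusted p = 0.0322 in HFpEF+Veh against controls, with 8 of 8 libraries under the control mean. TYA-018 raised it against vehicle by 0.82 ± 0.18 (SE), adjusted p = 0.00708, with 10 of 11 libraries above the vehicle mean, whereas empagliflozin gave 0.50 ± 0.18 (SE), adjusted p = 0.224 and did not pass. Each call held in 8 of 11 alternatives, limma being among those that lost both, and both were lost without V2523 and V2532, at -0.64 with an adjusted p of 0.0568 and 0.78 with an adjusted p of 0.0536. The regulatory subunits Phka1 and Phkb had no call and lay at -0.07 and 0.07 in HFpEF+Veh against non_failing.

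Part of the spread within groups went with a property of the libraries. Effective length is the deposited estimate, per gene and library, of how many start positions reads could have, and it depends on the fragments of the library. Its median over genes differed from the mean library by -9.05% to 12.9%. Within groups, 14 of 35 members correlated with this index at r above 0.5 (40.0%, against 16.9% of all genes) and 1 at r under -0.5 (16.5% of all genes), as a description over 38 libraries in which the index also went with the total count (r = 0.58). Gbe1 (r = 0.89), Hk1 (0.77), Pfkm (0.73), Gpi1 (0.73), Pygm (0.71) and Pygb (0.7) were among the highest, and Ldha (-0.54) was the lowest. Median TPM in the 6 shortest and the 6 longest libraries was 16.2 and 44.7 for Pfkm, 8.57 and 19.3 for Gbe1, 58.9 and 103 for Pygb and 336 and 240.4 for Ldha. The 6 longest were V2562, V2563 and V2564 of HFpEF+SGLT2i, V2543 and V2548 of HFpEF+TYA-018 and V2532 of HFpEF+Veh. Of the 6 shortest, 4 were from HFpEF+TYA-018. In HFpEF+Veh the 2 highest were V2532 and V2523, the other 6 all being shorter than the mean library.

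**Figure D4:**
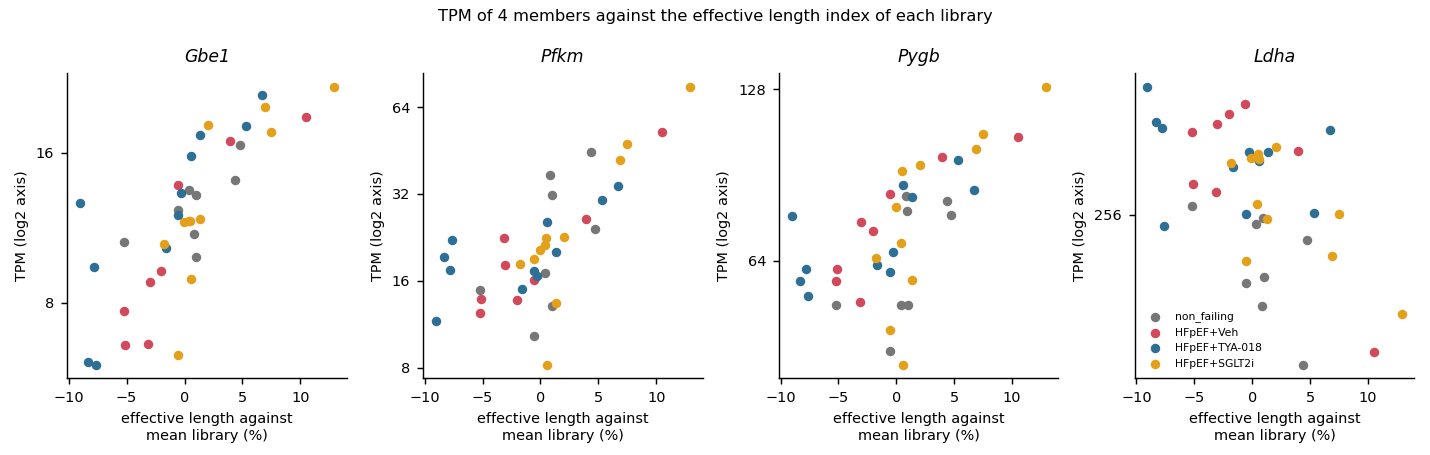
TPM (log2 axis) of Gbe1, Pfkm, Pygb and Ldha in each library (points, coloured by group) against the library's effective length relative to the mean library, in percent. Gbe1, Pfkm and Pygb run upwards over the range from -9.05% to 12.9%, and Ldha runs downwards.

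With this index as a covariate, chosen after its values had been seen, edgeR associated 48.5% of all genes with it and the member counts shifted. HFpEF+Veh against non_failing had 8 calls (4.45% of all genes called), the 7 above and Pfkp. HFpEF+TYA-018 against HFpEF+Veh had 14, all higher (6.33% of all genes): beside the 4 above they were Slc2a12, Gpi1, Pfkfb1, Tpi1, Eno3, Gys1, Gyg, Ugp2, Pgm2 and Pygm. HFpEF+SGLT2i against HFpEF+Veh had 0 (1.21% of all genes), with 6 members at an unadjusted p under 0.05 (12.6% of all genes). HFpEF+TYA-018 exceeded HFpEF+SGLT2i in 3 members (4.31% of all genes): Slc2a4 (0.35 ± 0.09 (SE), adjusted p = 0.0321), Gbe1 (0.46 ± 0.13 (SE), adjusted p = 0.0345) and Hk1 (0.23 ± 0.07 (SE), adjusted p = 0.0439). Against controls there were 11 calls in HFpEF+TYA-018 (10.1% of all genes) and 6 in HFpEF+SGLT2i (13.5%), the latter with Slc2a4 lower (-0.29 ± 0.09 (SE), adjusted p = 0.034). The part of the index in the members' differences was not tested beyond these fits.

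A further 59 genes of sugar handling and its regulation (other transporters, glycerol and hexosamine enzymes and transcription factors) were listed, of which 49 were tested. In HFpEF+Veh against non_failing 0 of the 49 were called in edgeR (3.15% of all genes), and in HFpEF+TYA-018 against HFpEF+Veh 1 of 49 was (1.93% of all genes). The gene was Galm, the galactose mutarotase (0.48 ± 0.11 (SE), adjusted p = 0.00794). Against controls 7.39% of all genes were called in HFpEF+TYA-018 and 6.45% in HFpEF+SGLT2i. Gpd1, which ties glycolysis to glycerol 3-phosphate, was higher than in controls in HFpEF+TYA-018 (0.55 ± 0.13 (SE), adjusted p = 0.00715) and in HFpEF+SGLT2i (0.46 ± 0.13 (SE), adjusted p = 0.0266). Mef2a, a transcription factor that activates Slc2a4 in muscle, was lower in both (-0.21 ± 0.06 and -0.18 ± 0.06 (SE), adjusted p = 0.0176 and 0.0411). Galm was also higher in HFpEF+TYA-018 than in controls (0.47 ± 0.11 (SE), adjusted p = 0.00364), and Slc2a6 was higher in HFpEF+SGLT2i than in controls (1.26 ± 0.32 (SE), adjusted p = 0.0118), at a mean of 0.232 ± 0.165 TPM (SD, n = 11) against 0.0912 ± 0.0266 TPM (SD, n = 8).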

How the data were processed

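Left ventricle RNA of 38 mice was captured by its poly(A) tail and sequenced on an Illumina instrument. The authors quantified transcripts with Salmon 1.6.0, as the submitters' processing notes also name it, and summed them to genes of the mouse assembly GRCm38. The notes list the build hg38, which is human and was not used here. The deposited expected counts, the deposited TPM and a deposited table of effective lengths in bases were used. Unmapped columns numbered 0.

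Expected counts were rounded, filtered with filterByExpr, scaled with TMM factors and fitted in edgeR 4.0.16 (R 4.3.3) as 1 model of the 4 groups. The two-sided quasi-likelihood F test was adjusted by Benjamini-Hochberg over all 13765 genes, with calls under 0.05. An SE is the log2 fold change over the root of F. A check of the test on simulated counts is not reported here. The alternatives included DESeq2 1.42.0 and limma 3.58.1 on log2(TPM + 1). Libraries in a direction are counted against the mean TPM of the second group. TPM is per length, so levels of different genes may be compared.

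The members, gene lists and tests were chosen with earlier results of these data known. Every member is named, with full statistics for the 13 called in any comparison with all libraries or without V2523 and V2532, and with pairs of isozymes set side by side. Coordinates are from GENCODE M21 on GRCm38, promoters from RefSeq (GRCm38.p6), matched by symbol. Salmon shares reads among near-identical copies by a model, so values of Aldoa, Eno1, Gapdh, Ldha, Pgam1, Pgk1 and Tpi1, which have retrocopies, are less certain, and the name Aldoa stands for 2 annotated genes. Neighbouring genes on opposite strands were not examined. One mouse gave 1 library, so p-values measure the spread between mice. A result of the wider list of sugar-handling genes is not reported here.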

Additional observations from a re-analysis of the deposited data

Results flagged for a closer look

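A library was marked where its gap to the nearest other library, over the range of its group, was wider than Dixon's test allows; the 2 groups of 8 were tested and those of 11 were not. Chance marks about 1 in 20 groups, and 7 of 70 were marked. In HFpEF+Veh, V2532 was highest for Pfkm at 52.5 TPM and lowest for Ldha at 165 TPM; it is also the library with the largest effective length of its group and with skeletal muscle RNA, and their part was not tested. V2523 was highest for Eno3 at 479 TPM, V2526 for Slc2a3 at 4.45 TPM and V2521 for Hk1 at 29.3 TPM. In non_failing, V2507 was lowest for Gpi1 at 49.5 TPM and V2510 highest for Pfkfb1 at 19.4 TPM.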

How the results depend on the processing

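Of 227 estimates for called members under the alternatives, 181 kept both direction and side of the threshold, 34 lost the call, 12 gained one and 0 changed sign. Fbp2 was called in each comparison with controls under every alternative run, at 1.09 to 1.48, and Pfkl likewise in both drug groups. Percentages in brackets are the share of all genes called in the same setting. In HFpEF+Veh against non_failing, where 7 members were called (3.15%), the count was 4 without a low-count filter (1.91%). In HFpEF+TYA-018 against HFpEF+Veh, where 4 were called (1.93%), it was 2 with library size alone (7.96%), 0 by limma (0.302%), 7 by DESeq2 (3.28%), 1 without V2523 and V2532 (0.649%), 14 with the length index as a covariate (6.33%) and 4 to 5 when V2523 or V2532 was left out singly (1.42% and 1.82%). In HFpEF+SGLT2i against HFpEF+Veh, with 0 called (0.85%), it was 1 without a filter (2.09%), 1 by DESeq2 (1.44%), 5 without V2571 and V2572 (2.33%) and 0 to 1 when V2523 or V2532 was left out singly (0.0145% and 1.27%). Between the drugs it rose from 0 (0.0%) to 3 with the length index (4.31%). In HFpEF+TYA-018 against non_failing, with 6 called (7.39%), it was 3 with library size alone (6.57%) and 11 with the length index (10.1%), and in HFpEF+SGLT2i against non_failing it was 2 with library size alone (4.77%) against 4 (6.45%). Limma called 1 member lower in HFpEF+TYA-018 and 1 in HFpEF+SGLT2i against non_failing (4.29% and 3.79%). The length offset called 1 lower in HFpEF+SGLT2i against non_failing (5.88%). The adjusted p of Aldoa in HFpEF+TYA-018 against HFpEF+Veh reached 0.112 at most, that of Gapdh 0.202, of Slc2a4 0.117 and of Phkg1 0.0799. The cause of these shifts was not tested. The length index and the setting without V2571 and V2572 were chosen after seeing the data. Scaling by library size alone put the median of all genes at -0.14 in HFpEF+TYA-018 against HFpEF+Veh. No paired analysis was possible because mouse numbers differ in every group. Members have enough reads that depth limits mainly Slc2a12, Slc2a3 and Pgm1.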
